A study of Homo sapiens with 2 samples.

Results

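The genes described here are 37 genes of the G2 phase and mitosis, chosen by name: CDK1 with its cyclins, CKS subunits and CDC25 phosphatases, the mitotic kinases, kinetochore and spindle proteins, mitotic kinesins and regulators of the anaphase-promoting complex (APC/C). The cells were K562, which were derived from human chronic myeloid leukaemia, carry the BCR-ABL fusion and are without functional p53. They held an inducible hairpin that silences BMI1, which belongs to Polycomb repressive complex 1. One culture had been kept with doxycycline for 96 h and the control culture without it, and 1 array was hybridised per culture. The control carried the same hairpin construct, so doxycycline itself, the hairpin and any other difference between these cultures cannot be told apart. The sources used here do not say whether the cells were 1 clone.

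Of the 33297 probe sets of the array, 40 were annotated to a member, and every member had at least 1. CENPA, the histone H3 variant of centromeres, had only a probe set shared with SLC35F6, so 36 members had a probe set of their own. All 36 reached a log2 value of 6 in at least 1 sample, the level below which genes were left out, as did 13471 of 18417 genes. Values are log2 RMA values, the authors' background-corrected, normalized and summarised probe signals. Differences are doxycycline minus no doxycycline on that log2 scale. With 1 sample per group there was no replicate spread to set a difference against, and no test was made.

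Mitotic genes are transcribed late in the cell cycle, and most of their transcripts are low in resting cells. Cyclin-bound CDK1 drives entry into mitosis, the spindle checkpoint holds the APC/C inactive until all kinetochores are attached, and the APC/C then marks securin and cyclin B for destruction. The MuvB complex, with B-MYB and FOXM1 in dividing cells or as part of the repressive DREAM complex in resting cells, acts on many of their promoters through a short element, the cell cycle genes homology region (CHR). In a bulk RNA sample, a smaller share of cells in G2 and mitosis and less of a transcript per cell cannot be told apart.

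BMI1 itself, read by a probe set that also covers COMMD3-BMI1, was 1.79-fold lower in the doxycycline sample (10.00) than in the control (10.84), so the labels matched the targeted transcript. The list of erythroid markers, which define K562, held 14 genes, of which 11 had a probe set of their own and passed the floor. Of these 11, 10 were lower with doxycycline (90.9%, against 48.8% of all genes), with a median difference of -0.18. HBZ, an embryonic globin gene, was among them at 10.38 against 10.83, and ALAS2, at 8.87 against 8.65, was the only marker that was higher. Summed over these markers the log2 values came to 105.8 with doxycycline and 108.0 without. Their part in the differences below was not tested. Markers of T and NK cells, B cells and fibroblasts had 3 of 7, 4 of 5 and 3 of 6 measured genes past the floor, with summed log2 values of 21.1, 25.9 and 22.3 with doxycycline and 21.3, 26.0 and 22.3 without. Granulocyte and monocyte markers, with 4 of 6 past the floor, summed to 29.5 with doxycycline and 29.6 without. These near-equal sums hide opposite differences, of -0.33 for ELANE and 0.28 for LYZ. Thus 2 of the 4 reached 1.2-fold, against 10.1% of all genes. Megakaryocyte markers, with 2 of 5 past the floor, summed to 16.7 with doxycycline and 16.4 without.

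The mitotic genes stood at nearly the same level in both samples. Of the 36 members, 20 were higher (55.6%, against 50.3% of all genes) and 16 lower with doxycycline. The median difference was 0.0035, against 0.0018 over the 13471 genes. At least a 1.1-fold difference was seen for 2 members (5.56%), where the share of all genes of that size was 36.6%. One of them, CDC25C, was higher (19.4% of all genes were 1.1-fold higher) and the other, CKS2, lower (17.1% of all genes). None of the members reached 1.2-fold (0 of 36, against 10.1% of all genes) or 1.5-fold (0 of 36, against 0.475%). Both shares were lower among genes as bright as most members, 4.79% and 0.16% at levels 9 to 12.

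**Figure D1:**
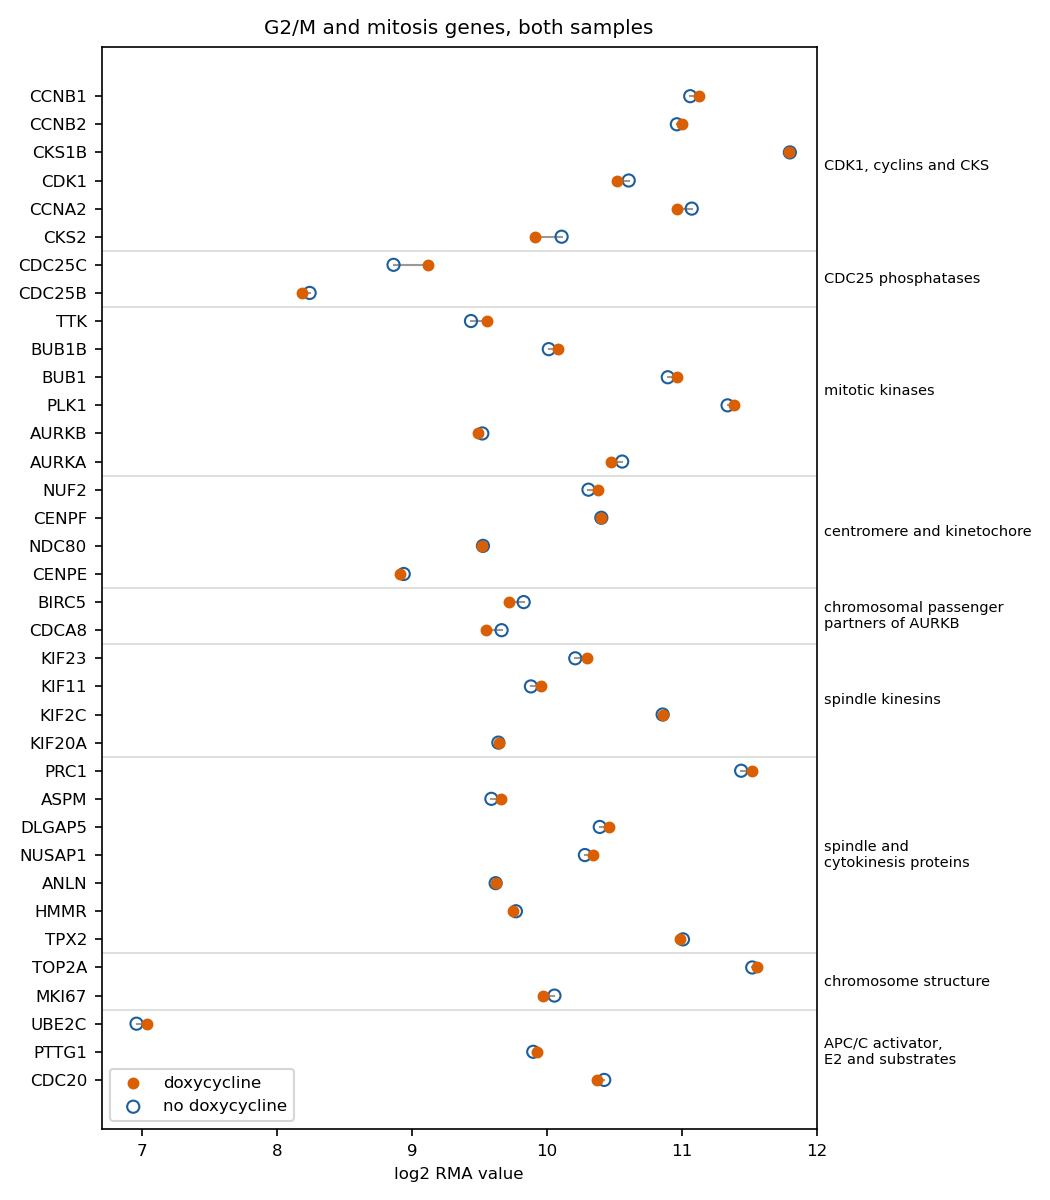
Log2 RMA value of the 36 members with their own probe set (x axis) in the doxycycline sample (filled points) and the sample without doxycycline (open circles), by subgroup. The points of a gene lie close together throughout, and the widest gaps are those of CDC25C (9.12 against 8.86) and CKS2 (9.91 against 10.11).

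CDC25C and CKS2 both belong to the CDK1 control circuit and stood at opposite ends of the members. CDC25C, the phosphatase that removes inhibitory phosphates from CDK1 at mitotic entry, had 9.12 with doxycycline and 8.86 without, a difference of 0.25 or 1.19-fold. CDC25B, which acts earlier in G2, had 8.18 with doxycycline and 8.24 without, a difference of -0.06, so the CDC25 pair did not share a direction. CKS2, a small subunit that docks CDK complexes onto phosphorylated targets, was 1.15-fold lower (-0.20), at 9.91 with doxycycline and 10.11 without. These were the only members whose difference was larger than the robust SD of genes within 0.5 log2 units of the same level, which was 0.14 for CDC25C and 0.13 for CKS2.

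CDK1 itself and cyclin A were slightly lower, and the B cyclins slightly higher. CDK1, the kinase that drives mitosis, had 10.52 with doxycycline and 10.61 without, a difference of -0.09. CCNA2, the cyclin of S and G2 phase, had 10.97 with doxycycline and 11.07 without, a difference of -0.11. CCNB1, the cyclin whose destruction ends mitosis, had 11.13 with doxycycline and 11.06 without, a difference of 0.06. Its relative CCNB2 differed by 0.04. The catalytic subunit and its mitotic cyclins therefore did not move the same way, all by less than 1.1-fold.

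CKS1B, the other CKS subunit, had 3 probe sets. The one with the highest signal differed by -0.0033, with 11.797 with doxycycline and 11.801 without. The other two differed by -0.00034 (11.65 in both samples) and by -0.10 (10.94 with doxycycline and 11.04 without). CKS1B has near-identical processed copies in the genome, so which transcripts each of these probe sets reads is uncertain. The probe set at -0.10 is numbered between those of KIF2C and NUF2, both on chromosome 1 like CKS1B. The one with the highest signal, used here for CKS1B, is numbered between those of HMMR and CDC25C, both on chromosome 5. The value used for CKS1B may therefore come from a copy, which was not tested.

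Promoters of these genes are shown because the CHR and CCAAT letters in them are a feature that many of the members share. The sequences are from RefSeq on GRCh38.p14, run 5′ to 3′ on the gene's strand, and carry in capitals every match on either strand to the CHR letters TTTGAA or TTCGAA and to CCAAT, the NF-Y box. Those of CDC25C, CKS2 and CCNB1 are the 150 bases before an annotated start (CDC25C at chr5:138331878-138332027, minus strand; CKS2 at chr9:89311045-89311194 and CCNB1 at chr5:69167000-69167149, both plus strand). CDC25C and CDK1 have further starts close by, so only 30 bases around a CHR match are given (chr5:138331817-138331846, minus strand, and chr10:60778400-60778429, plus strand). From 250 bases before to 50 bases after the start that follows the CDK1 stretch, CDK1 has 3 CHR and 2 CCAAT matches. The CHR match shown for CDK1 is the farthest of the 3 from that start. The CHR matches nearer to it and the other CCAAT match are not shown.
CDC25C, before the start: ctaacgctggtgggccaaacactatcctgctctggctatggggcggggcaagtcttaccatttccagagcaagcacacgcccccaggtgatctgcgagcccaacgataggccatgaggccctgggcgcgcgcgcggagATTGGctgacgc
CDC25C, CHR match: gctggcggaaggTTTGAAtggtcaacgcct
CKS2, before the start: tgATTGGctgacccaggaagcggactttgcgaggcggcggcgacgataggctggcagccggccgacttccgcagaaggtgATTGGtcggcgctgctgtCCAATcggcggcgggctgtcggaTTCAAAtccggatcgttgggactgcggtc
CDK1, CCAAT and CHR matches: ATTGGctgcTTTGAAagtctacgggctacc
CCNB1, before the start: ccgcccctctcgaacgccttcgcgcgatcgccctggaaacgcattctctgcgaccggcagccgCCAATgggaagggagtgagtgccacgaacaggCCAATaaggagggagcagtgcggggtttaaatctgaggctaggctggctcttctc

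The member with the largest positive difference and the one with the largest negative difference thus carried both elements, in the same order of CCAAT before CHR. Promoter windows from 250 bases before to 50 bases after the start were found for 31 of the 36 members. A CHR match lay in 24 of the 31 (77.4%), against 15.0% of the 10603 genes past the floor with a window, and 16.4% of all 35116 windows. A CCAAT match lay in 25 of 31 (80.6%), against 41.7% of genes and 34.6% of windows, and both lay in 20 of 31 (64.5%), against 6.06% of genes and 6.38% of windows. Matches to the 2 elements were counted independently of each other, and a gene with several windows counted once. The CHR match nearest a start lay a median of 28.5 bases from it in the members and 117 bases in all genes with a match. These are letter matches in fixed windows and not sites shown to be bound.

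Members with and without the CHR letters overlapped in their differences. The 24 members with a CHR match ran from -0.20 to 0.25, with a median of 0.04 and 14 higher with doxycycline. The 7 without a match ran from -0.11 to 0.06, with a median of 0.0026 and 4 higher. Over the 10603 genes the medians were 0.02 with a CHR match and 0 without. No test was made of the gap between these medians.

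Of the mitotic kinases, those of the spindle checkpoint were higher and the Aurora kinases lower, in each case by less than 1.1-fold. TTK, which starts checkpoint signalling at unattached kinetochores, had 9.55 with doxycycline and 9.44 without, a difference of 0.12. BUB1, its scaffold kinase, and BUB1B, a subunit of the checkpoint complex that inhibits the APC/C, differed by 0.07 each. PLK1, the polo-like kinase needed for spindle assembly and mitotic exit, had 11.38 with doxycycline and 11.34 without, a difference of 0.05. AURKA, the Aurora kinase of centrosomes and spindle poles, differed by -0.08. AURKB, the Aurora kinase of centromeres, differed by -0.03, with 9.49 with doxycycline and 9.52 without. The median of these 6 kinases was 0.06.

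All measured subunits of the chromosomal passenger complex were on the lower side. This complex carries AURKB to centromeres and then to the central spindle. CDCA8 (borealin) had 9.55 with doxycycline and 9.66 without, a difference of -0.12. BIRC5 (survivin) had 9.72 with doxycycline and 9.83 without, a difference of -0.11. INCENP, the scaffold of the complex, which was on the list of further spindle genes, differed by -0.11. With AURKB at -0.03, 4 of 4 subunits were lower, with a median of -0.11, where 48.8% of all genes were lower. None reached 1.1-fold at these probe sets. CDCA8, BIRC5 and AURKB each differed by less than the robust SD of genes of similar level (0.13 for each). BIRC5 had a further, dim probe set below the floor, at 5.66 with doxycycline and 5.92 without, and the mean of both BIRC5 probe sets differed by -0.18. The grouping into this complex and into the 3 other complexes below was made after the values were seen.

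Among the kinetochore members, NUF2 was slightly higher, and CENPF, NDC80 and CENPE lay within 0.03 of 0. NUF2, which pairs with NDC80 in the complex that grips microtubules, differed by 0.07, and NDC80 by -0.0085. Their partners SPC24 and SPC25 differed by 0.04 and 0.05, so 3 of the 4 subunits of the NDC80 complex were higher (median 0.05). Of all genes, 50.3% were higher. CENPF, a large kinetochore protein of G2 and mitosis, differed by -0.0028, and CENPE, the kinetochore motor that moves chromosomes to the spindle equator, by -0.02. The probe set shared by CENPA and SLC35F6 had 9.48 with doxycycline and 9.59 without, a difference of -0.10 that cannot be assigned to either gene.

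**Figure D2:**
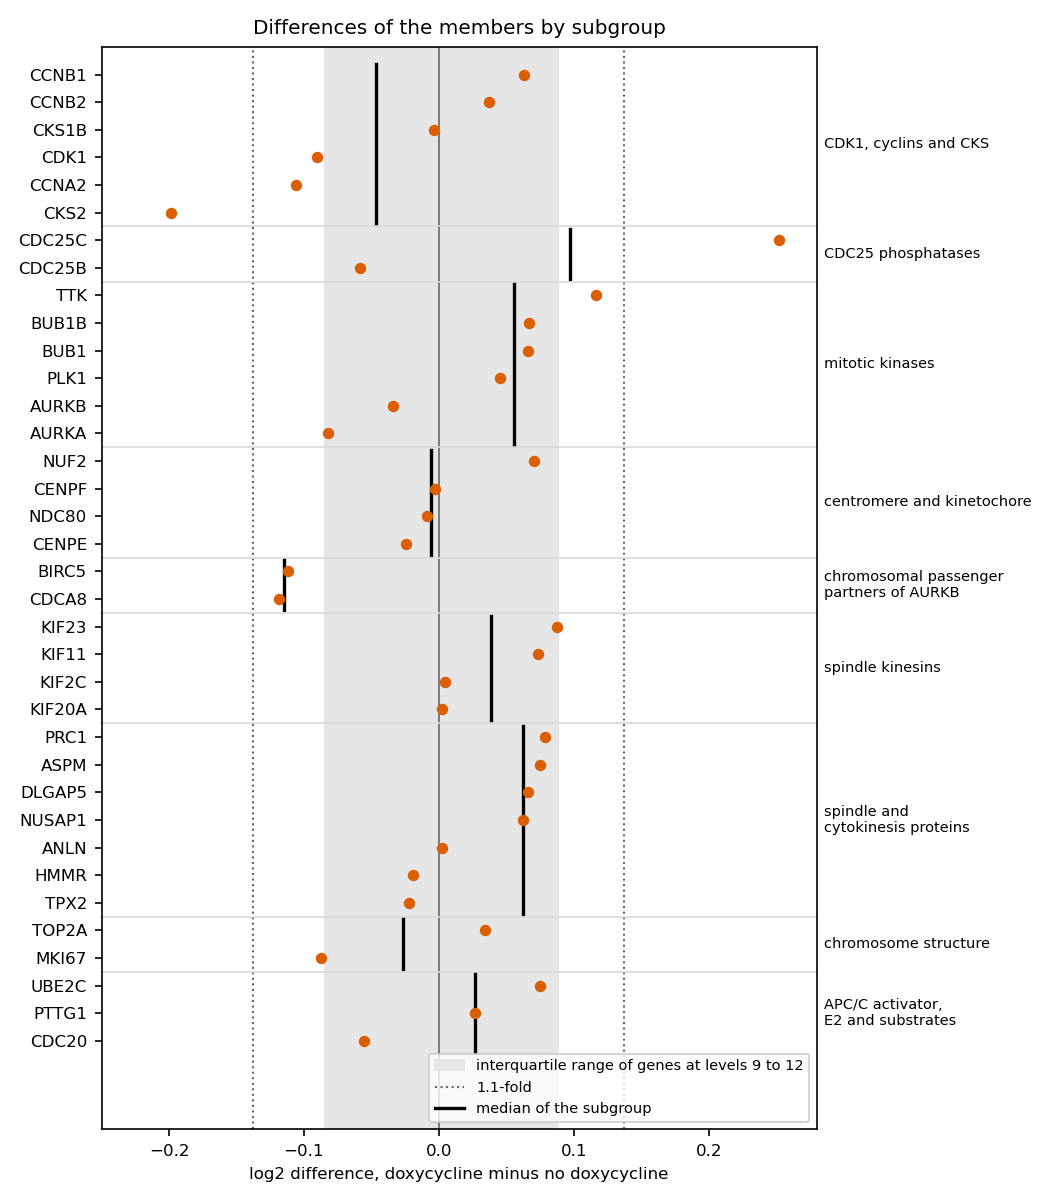
Log2 difference of each member, doxycycline minus no doxycycline (x axis), by subgroup, with black lines at subgroup medians, a grey band for the interquartile range of genes at levels 9 to 12 (-0.08 to 0.09) and dotted lines at 1.1-fold. Only CDC25C (0.25) and CKS2 (-0.20) lie beyond the dotted lines.

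Of the spindle kinesins, KIF23 and KIF11 were slightly higher, and KIF2C and KIF20A stood within 0.01 of 0. KIF23, the motor of centralspindlin in cytokinesis, had 10.30 with doxycycline and 10.21 without, a difference of 0.09. RACGAP1, its partner in centralspindlin, differed by 0.05. KIF11, the motor that pushes spindle poles apart, differed by 0.07. KIF2C, which depolymerises microtubule ends, and KIF20A, a motor of the central spindle, differed by 0.0044 and 0.0026. The last 2 were lower once each sample was centred on its median, at -0.0071 and -0.009, and KIF20A also with a loess trend on level removed (-0.0018). The median of the 4 kinesins was 0.04 and became 0.0044 without KIF23.

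Of 7 other spindle and cytokinesis proteins, 5 were higher and 2 lower, with a median of 0.06. PRC1, which is here the microtubule bundler Protein Regulator of Cytokinesis 1 and not the Polycomb complex, had 11.52 with doxycycline and 11.44 without, a difference of 0.08. ASPM, a spindle pole protein, DLGAP5, which stabilises kinetochore fibres, and NUSAP1, a microtubule binder, differed by 0.07, 0.07 and 0.06. ANLN, the anillin of the cleavage furrow, differed by 0.0023, HMMR, a spindle-associated protein, by -0.02, and TPX2, the activator of AURKA, by -0.02.

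Chromosome and APC/C genes went both ways, each by less than 1.1-fold. TOP2A, the topoisomerase that untangles sister chromatids, had 11.56 with doxycycline and 11.52 without, a difference of 0.03. MKI67, the Ki-67 protein that coats mitotic chromosomes and serves as a proliferation marker, differed by -0.09. CDC20, the activator of the APC/C in mitosis, differed by -0.06. UBE2C, the ubiquitin-conjugating enzyme of the APC/C, differed by 0.08. It was the dimmest member, at 7.03 with doxycycline and 6.96 without. PTTG1, the securin that the APC/C destroys, differed by 0.03. PTTG1 has near-identical copies in the genome, so its value is uncertain.

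The differences of the members were spread less widely than those of genes of like level, as were those of several other cell cycle lists. Their level was 9 to 12 for 32 of the 36, and 3761 genes had a level in that range. The interquartile range of the differences was 0.11 over the 36 members, 0.17 over the genes at levels 9 to 12 and 0.20 over all genes past the floor. Among the other cell cycle lists it was 0.09 for cohesin, 0.10 for further checkpoint and 0.10 for further kinetochore genes, and 0.11 for condensins, for MuvB and DREAM genes and for replication genes. It was 0.14 for further spindle genes, 0.15 for APC/C genes and 0.18 for mitotic entry and exit regulators, so the narrow spread was not particular to the members. The difference was under 0.1 in size for 30 of the 36 members, against 56.1% of genes at levels 9 to 12. For 34 of the 36 members (94.4%) it was smaller than the robust SD of genes of similar level, against 68.3% of genes at levels 9 to 12. At least 1.1-fold was reached by 1 of the 32 members in this range, CKS2, and by 28.4% of its genes. These shares describe 1 pair of arrays, and the range of 9 to 12 was chosen after the values were seen.

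**Figure D3:**
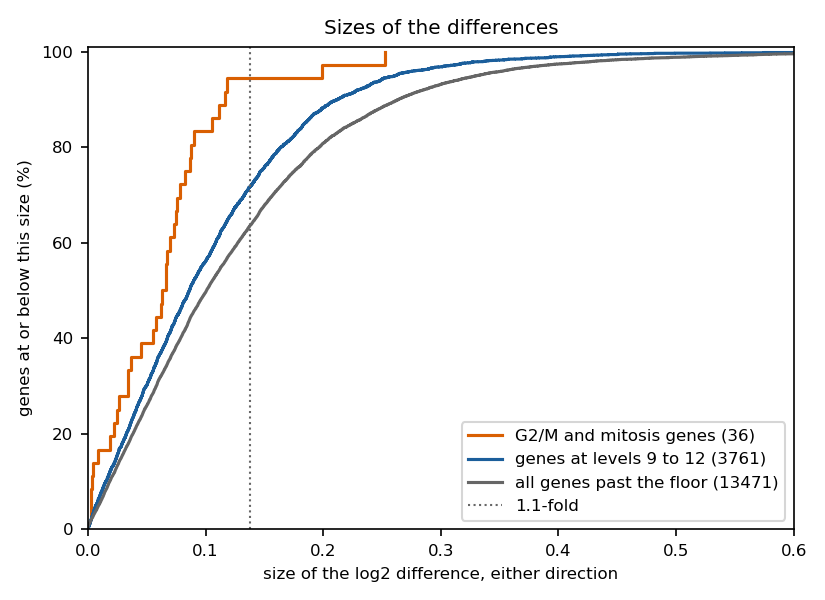
Cumulative share of genes (y axis, %) with a log2 difference up to a given size in either direction (x axis), for the 36 members, the 3761 genes at levels 9 to 12 and the 13471 genes past the floor. The curve of the members rises above both others, with 34 of 36 members left of the dotted 1.1-fold line.

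The remaining mitotic machinery was described through 8 further lists, none of whose members is among the 37. Of their 131 genes past the floor, 73 were higher (55.7%, against 50.3% of all genes) and 58 lower, with a median of 0.02. At least 1.1-fold was reached by 15 upward and 10 downward (11.5% and 7.63%, against 19.4% and 17.1% of all genes), and 0 of 131 reached 1.2-fold, against 10.1% of all genes and 4.79% of those at levels 9 to 12.

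Cohesin, condensin and further spindle genes had the highest medians. Of all genes past the floor, 50.3% were higher, and 19.4% were at least 1.1-fold higher. That size was reached upward by 2 of 14 cohesin genes (14.3%), 1 of 8 condensins (12.5%) and 4 of 22 further spindle genes (18.2%). Cohesin and separase genes had 9 of 14 higher and a median of 0.06. They ran from CDCA5 (sororin, which protects cohesion) at -0.11 to SGO2 (a shugoshin) at 0.25, with 8.26 with doxycycline and 8.01 without. Condensins had 6 of 8 higher and a median of 0.05, and ran from SMC2, a core ATPase, at -0.0062 to NCAPD2, a regulatory subunit of condensin I, at 0.17. Condensin I as a whole had 4 of 5 subunits higher. Further spindle and cytokinesis genes had 13 of 22 higher and a median of 0.06. The lowest was CEP55, the abscission scaffold, at -0.12, and the highest KIF4A, the chromosome-bound kinesin, at 0.21, with 10.23 with doxycycline and 10.02 without.

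Further kinetochore genes had 16 of 26 higher (61.5%, against 50.3% of all genes) and a median of 0.04. At least 1.1-fold in either direction was reached by 6 of 26 (23.1%), against 36.6% of all genes and 28.4% of those at levels 9 to 12. The list ran from CENPQ at -0.22 to MIS12 at 0.19, both structural kinetochore subunits. Further checkpoint genes had 4 of 10 higher (40%, against 50.3% of all genes) and a median of -0.04. None of these 10 genes reached 1.1-fold. They ran from MAD1L1 (MAD1), which recruits MAD2 to kinetochores, at -0.12 to KNTC1, which recruits dynein and checkpoint proteins, at 0.10. APC/C subunits and other regulators had 10 of 17 higher and a median of 0.01. ANAPC16, a small subunit, was the highest at 0.25, with 9.46 with doxycycline and 9.22 without, and ANAPC10, the subunit that helps to bind substrates, the lowest at -0.21, with 6.82 against 7.03.

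Mitotic entry and exit regulators had 9 of 20 higher (45%, against 50.3% of all genes) and a median of -0.0048. They ran from GAS2L3, a cytoskeletal linker, at -0.20 to PBK, a mitotic kinase, at 0.19. The list of MuvB, B-MYB, FOXM1 and DREAM genes, which act on mitotic promoters, had 6 of 14 higher and a median of -0.02. RBL2 (p130), the pocket protein of DREAM, was the highest of the list at 0.22, with 8.92 with doxycycline and 8.70 without. TFDP1, the dimerisation partner of E2F factors, was the lowest at -0.22, with 10.36 with doxycycline and 10.58 without. FOXM1 had 8.33 with doxycycline and 8.50 without, a difference of -0.17, and MYBL2, the gene of B-MYB, differed by -0.02; both were named after their values were seen.

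Replication and S phase genes, the neighbouring stage of the cycle, leaned further to the lower side than the mitotic members. Of 44 such genes past the floor, 31 were lower (70.5%), against 16 of the 36 members (44.4%) and 48.8% of all genes. Their median was -0.04, and they ran from GINS2, a subunit of the replicative helicase, at -0.26 to LIG1, the replicative DNA ligase, at 0.17. The difference between the lists was not tested, since each group held 1 sample.

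**Figure D4:**
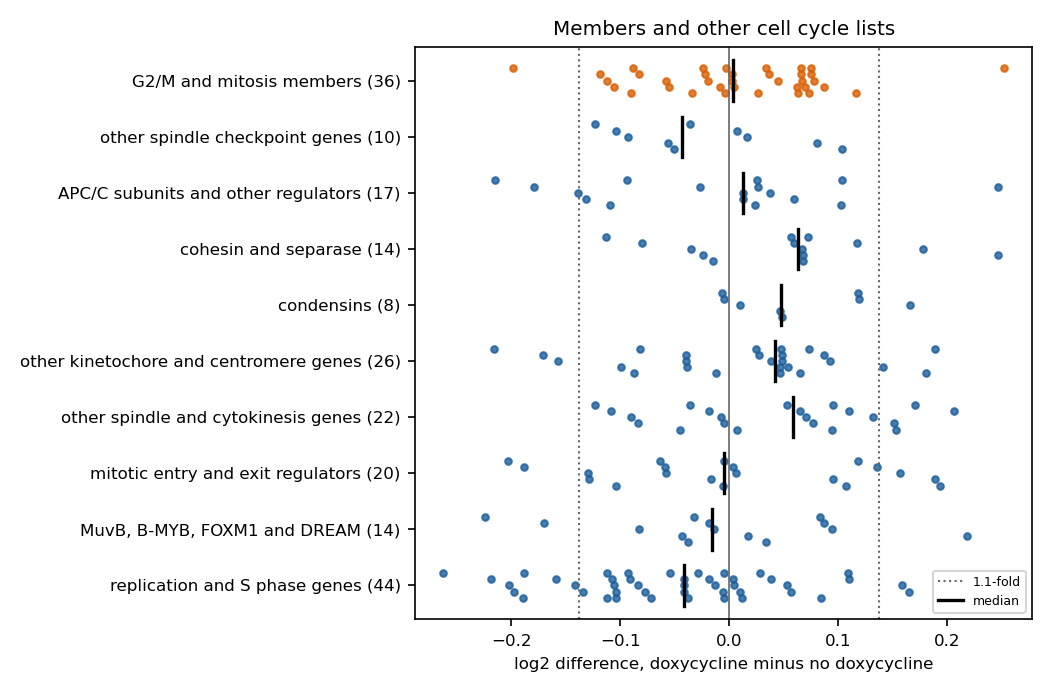
Log2 difference of every gene past the floor, doxycycline minus no doxycycline (x axis), for the 36 members and 9 other cell cycle lists, with the number of genes in brackets, black lines at medians and dotted lines at 1.1-fold. The medians of the other lists lie between -0.04 (spindle checkpoint, replication) and 0.06 (cohesin).

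Of the 16 members that were lower with doxycycline, 10 had a genomic span up to the median of the members. Span, which played no part in the choice of members, ran from 4223 bases (CDC20) to 92533 bases (CENPE), with a median of 28934 bases. Of the 18 members with a span up to the median, 8 were higher with doxycycline and the median difference was -0.02. Of the 18 longer members, 12 were higher and the median difference was 0.06. Across the 36 members Spearman's rho between span and difference was 0.37, and it was 0.30 over 34 members without CKS2 and CDC25C. It was 0.23 across the 131 genes of the other mitosis lists and 0.18 across 13457 genes past the floor. All these points share the same 2 arrays, and genes are not independent replicates, so rho is a description. CKS1B entered with the span of its gene on chromosome 1, though the value used for it may come from a copy. The value of PTTG1 is uncertain too.

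**Figure D5:**
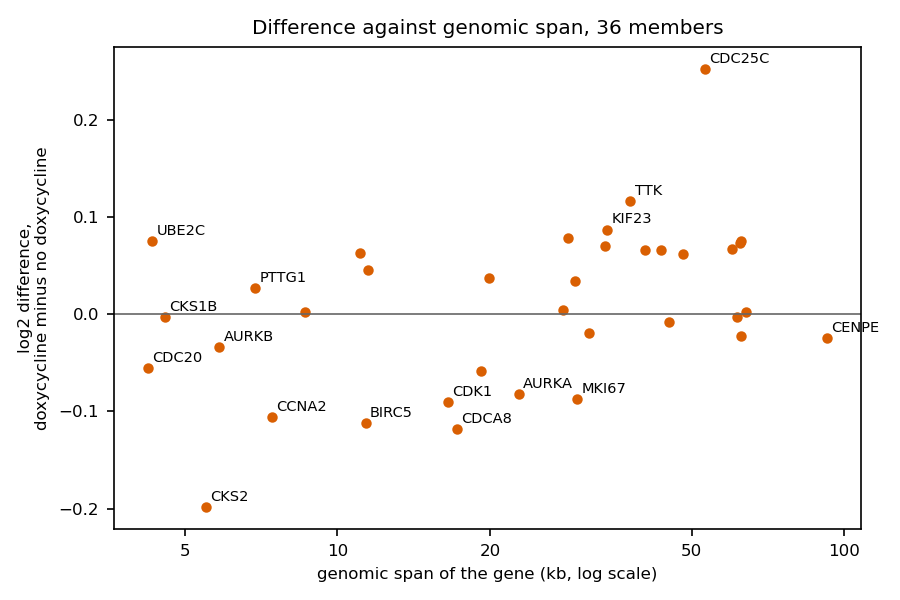
Log2 difference, doxycycline minus no doxycycline (y axis), against the genomic span of the gene in kb (x axis, log scale) for the 36 members. CKS2 (5509 bases) lies lowest among the short genes and CDC25C (53091 bases) highest among the long ones.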

How the data were processed

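RNA was labelled by an Affymetrix whole-transcript protocol, per the labels' protocols. Per the submitters' processing notes, RMA in Affymetrix Expression Console 1.1.1 gave the log2 values that the authors deposited; the log2 base was taken from RMA and the range of values (1.61 to 14.6). RMA compresses the differences of dim probes, and a shift common to every gene would not be visible after it. The design text names another array type than the probe set numbers and annotation, and the annotation was used. Depth does not apply: the number of arrays limits the precision.

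Of 19460 probe sets with 1 symbol, 19429 matched RefSeq (GRCh38.p14) by Entrez ID; 1754 had several symbols and 12083 none here. A gene took its probe set with the highest mean; genes under 6 in both samples were left out. The robust SD is 1.4826 times the median absolute deviation. Named by rule were all members, each further list's extremes and BMI1. Members and lists were chosen with earlier results of these data known. Steps were tested on simulated data. Alternatives covered probe set choice, scaling, floors and leaving out a member. No protein sequences were used here. The work used matplotlib 3.10.9, scipy 1.17.1, statsmodels 0.14.6, pandas 2.3.3, numpy 2.4.6 and Python 3.11.15.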

Additional observations from a re-analysis of the deposited data

How the results depend on the processing

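The median of the members stayed between -0.008 and 0.0072 over 11 alternatives, with 17 to 21 members higher; its sign turned when each sample was centred on its median, a shift of 0.01. No alternative brought a member to 1.2-fold (0 in each of 10). The count of members at least 1.1-fold lower was 2 with the mean and 2 with the median over probe sets, since BIRC5 then passed, and that of members higher was 0 at levels 9 to 12, a range chosen after seeing the data that leaves out CDC25C. Of the 3 subgroups of 2 genes, 2 turned sign without the member with the larger difference: the CDC25 median was -0.058 without CDC25C, and that of chromosome structure 0.034 without MKI67. The APC/C subgroup had a median of -0.01 without UBE2C. Of the other lists, the APC/C subunits turned to -0.03 at levels 9 to 12, and the other 8 kept their sign. A result was taken as moved when a median shifted by 0.05 or a count by over 1.5 times, as no replicate spread exists. No paired analysis was possible because each group held 1 sample. What the differences owe to error between cultures or arrays cannot be given from 1 sample per group.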

Other observations

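In 735 of the 33297 probe sets the deposited value was identical in both samples to the last digit, 191 of them at 6 or above. None of the 40 probe sets annotated to the mitotic genes was among them (0 of 40). The cause was not tested.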
